A study of Mus musculus with 2 samples.

Results

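The receptors for the constant part of immunoglobulins, the adaptor chains that carry their signal and the kinase that reads it were followed in mouse calvarial cells during osteoblast culture. The set was chosen by gene symbol and holds 9 of the 18193 genes on the array, namely Fcgr1, Fcgr2b, Fcgr3, Fcgr4, Fcer1g, Fcgrt, Tyrobp, Trem2 and Syk, and all 18 probe sets annotated with 1 of these symbols were read. The cells came from the skull roof of newborn mice, had been depleted of cells carrying the myeloid surface protein CD11b, and were grown with ascorbic acid (50 µg/ml) and β-glycerophosphate (10 mM), the additives that let osteoblasts lay down and mineralise collagen. The groups were day 5 and day 12 of this culture with no other treatment, and the labels name neither the strain nor the number of animals pooled. RNA of each day was hybridised to 1 Affymetrix array, so no difference below has a replicate check, a standard error or a p-value, and every statement compares these 2 arrays.

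Activating Fcγ receptors bind antibody but have little signalling tail of their own. They pair with the FcRγ chain, encoded by Fcer1g, whose immunoreceptor tyrosine-based activation motif (ITAM) is phosphorylated by Src-family kinases and then docks the kinase Syk. Tyrobp encodes DAP12, a second ITAM adaptor, which serves Trem2 and other myeloid receptors, while Fcgr2b carries an inhibitory motif that recruits the phosphatase SHIP1. In bone, FcRγ and DAP12 together provide the costimulatory signal that osteoclasts need to form, and these genes are best known from macrophages, osteoclasts and other blood cells and not from osteoblasts.

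The stretch just before the start of transcription is shown for 6 of the genes. It sets 4 of the 5 genes with the higher day 12 signal (Fcgr2b, Fcgr3, Fcer1g and Trem2) beside the weak receptor genes Fcgr1 and Fcgr4. The 5th, Tyrobp, had no annotated start in the source used. Sequences are RefSeq's for GRCm38.p6, the last 100 bases before the annotated start, written 5′ to 3′ on the gene's strand. Capitals mark GAGGAA or its reverse complement TTCCTC, the core recognised by PU.1, the myeloid transcription factor encoded by Spi1.
Fcgr2b, chr1:170976072-170976171, minus strand: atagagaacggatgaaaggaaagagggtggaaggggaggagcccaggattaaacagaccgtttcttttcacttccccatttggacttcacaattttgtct
Fcgr3, chr1:171059404-171059503, minus strand: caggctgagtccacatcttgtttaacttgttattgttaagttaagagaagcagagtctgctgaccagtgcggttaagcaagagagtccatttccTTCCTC
Fcer1g, chr1:171234350-171234449, minus strand: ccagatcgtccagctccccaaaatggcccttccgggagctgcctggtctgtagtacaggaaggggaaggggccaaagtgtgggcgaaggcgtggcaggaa
Trem2, chr17:48346301-48346400, plus strand: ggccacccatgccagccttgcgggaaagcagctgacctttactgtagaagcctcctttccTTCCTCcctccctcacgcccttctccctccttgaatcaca
Fcgr1, chr3:96293970-96294069, minus strand: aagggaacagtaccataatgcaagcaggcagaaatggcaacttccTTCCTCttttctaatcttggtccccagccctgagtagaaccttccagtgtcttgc
Fcgr4, chr1:171018826-171018925, plus strand: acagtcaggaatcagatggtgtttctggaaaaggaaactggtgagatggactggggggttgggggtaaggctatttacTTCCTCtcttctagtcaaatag

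A start was given for 8 of the 9 genes and not for Tyrobp. The match was in Fcgr1, Fcgr3, Fcgr4, Trem2 and 1 of the 2 starts of Syk. That is 6 of 10 windows, against 9.82% of all 32851 windows of the same length. The 2 windows of Fcgr3 overlap and hold the same match, so it is counted for both among the 6. Its first base lay at -55 in Fcgr1, -40 in Trem2, -22 in Fcgr4 and -6 in the Fcgr3 window shown, counted from the base before the start as -1. The windows of Fcgr2b, Fcer1g and Fcgrt had none. Among the genes with a start, which leaves out Tyrobp, the match thus did not separate those higher at day 12 from the others. Both strands were also searched for the Runx core TGTGGT, which 5.61% of all windows hold, for the AP-1 site TGACTCA (1.88%) and for the E-box CACGTG (3.17%), and none of the 10 windows held any of them. These matches describe letters in a window and do not show binding. The signal of Spi1 itself was 21.3 at day 5 and 33.4 at day 12, below the level at which a signal was counted here.

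The signal is the deposited intensity on a linear scale, set to the same trimmed mean on both arrays. A floor was placed at each array's 60th percentile, which was 46.6 for day 5 and 44.8 for day 12, and a gene was counted as measured where its brightest probe set reached the floor at 1 day or both. Where 1 day lay below the floor, that value was raised to it and the fold is a bound, written "at least". Of the 9 genes, 5 were above the floor at both days, Fcgr1 and Trem2 reached it at day 12 alone, and Fcgr4 and Syk stayed below it. On the day 12 array, Fcgr2b, Fcgr3, Fcer1g, Tyrobp and Trem2 were 2-fold higher or more, Fcgr1 and Fcgrt differed by less and none of the 9 was at least 2-fold lower. Among all 10479 measured genes, 3.56% passed the same limit upwards and 1.73% downwards. Trem2 could enter this count only by being higher at day 12, so the count is a description of the set and not support for it. Of the 18 probe sets 10 were measured and 8 of them were at least 2-fold higher, against 3.16% of measured probe sets. Of these 8, 4 belong to Fcgr2b, so they are not independent. Probe sets 1455332_x_at of Fcgr2b, 1421792_s_at of Trem2 and 1417876_at of Fcgr1 passed the floor at day 12 alone. They could enter only by being higher then, so this count too is a description and not support. A higher level in such a culture can reflect more cells of a type or more RNA per cell, which cannot be told apart.

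**Figure D1:**
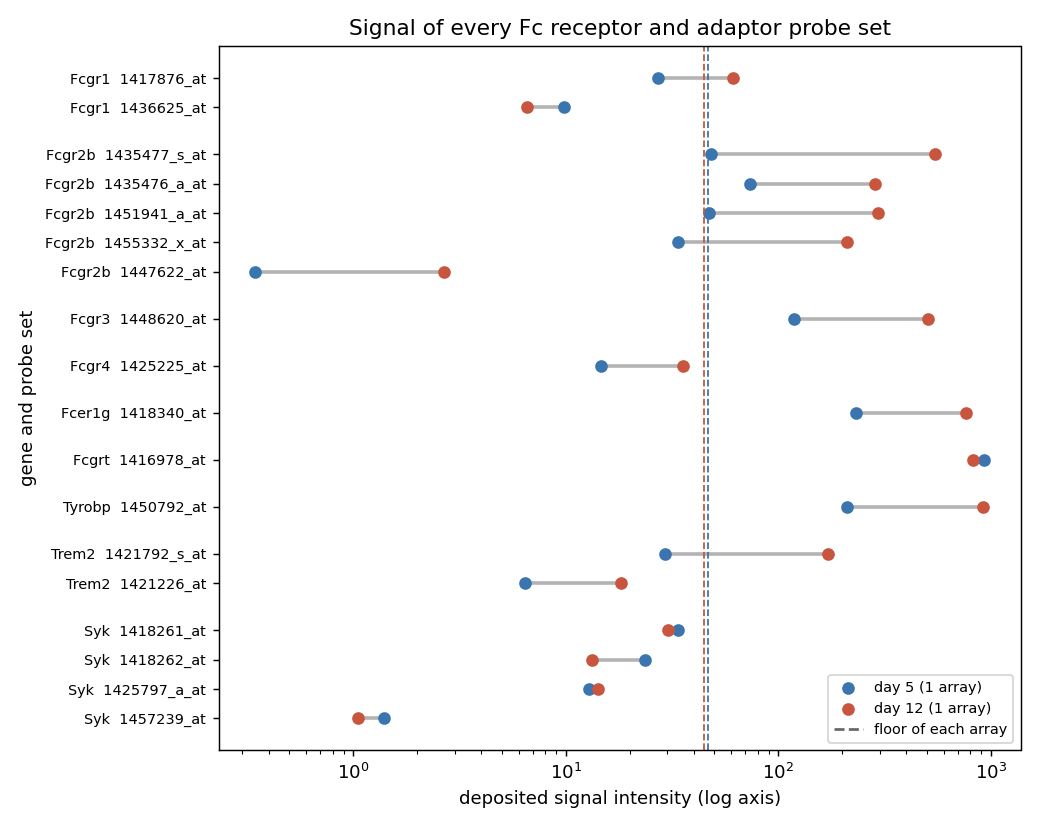
Deposited signal of all 18 probe sets on a log axis, with day 5 in blue, day 12 in red, 1 array per day and each array's floor as a dashed line. The 4 brighter Fcgr2b probe sets, Fcgr3, Fcer1g, Tyrobp and 1 Trem2 probe set lie far to the right at day 12, Fcgrt is nearly the same at both days, and all 4 Syk probe sets lie below the floor.

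The inhibitory receptor gene Fcgr2b had the highest ratio of the 9 genes by its brightest probe set. With the floor at the 75th percentile its log2 ratio of 1.58 was below those of Tyrobp (2.13) and Fcer1g (1.72). Its brightest probe set, 1435477_s_at, went from 48.4 at day 5 to 543.7 at day 12, which is 11.2-fold higher and ranks 15 from the top among the 10479 measured genes. The day 5 value lay just above the floor, so the size of this fold depends on a signal near the limit of measurement. Probe set 1451941_a_at went from 47.2 to 293.3 (6.21-fold) and 1435476_a_at from 73.7 to 284.9 (3.87-fold). Probe set 1455332_x_at went from 33.7, below the floor, to 210.1, at least 4.50-fold higher. The last one, 1447622_at, had signals of 0.35 and 2.68, both far below the floor. All 4 measured probe sets of Fcgr2b were therefore higher at day 12, by amounts that spanned 1.54 on the log2 scale. Among 386 genes with 4 measured probe sets the median span was 0.40, and 3 genes, Fcgr2b included, spanned as much. Among 145 genes that were higher at day 12 and had several measured probe sets, the median span was 0.54 and 21 spanned at least as much as Fcgr2b. The 4 measured probe sets all carry a suffix that marks sequence shared between transcripts or genes, and the receptor genes of this family are close paralogs, so part of their signal may belong to a relative. How much was not tested. With 2 arrays the pattern of a gene is its ratio alone. The 4 genes measured at both days with the ratio nearest to that of Fcgr2b were Ak4 (11.3-fold), Aldoc (11.1-fold), Ramp1 (11.6-fold) and Hspb7 (11.9-fold).

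Of the activating receptors, Fcgr3 was clearly measured at both days and the others were not. Fcgr3, a low-affinity receptor for immune complexes, went from a day 5 signal of 118.8 to 508.2 at day 12 (4.28-fold) in its only probe set, which carries no suffix for shared sequence. Fcgr1 encodes the high-affinity IgG receptor. Its brighter probe set had 27.2 at day 5 and 61.1 at day 12, at least 1.31-fold higher, and its other probe set had 9.80 and 6.59. Only the day 12 value of the brighter one passed the floor, and with a floor at the 50th percentile the same probe set was 2.25-fold higher. Fcgr4, an activating receptor of mouse monocytes and macrophages, had 14.7 and 35.7, below the floor at both days, so no fold was taken. With the floor at the 50th percentile its log2 ratio was at least 0.86.

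Both ITAM adaptor genes were higher at day 12. The Tyrobp signal was 209.7 at day 5 and 917.7 at day 12, which is 4.38-fold. Fcer1g had 231.9 and 764.6, which is 3.30-fold. Both were well above the floor at both days, each by a single probe set without a suffix for shared sequence. Their log2 ratios of 2.13 and 1.72 stand beside 2.10 for Fcgr3, whose product needs the FcRγ chain to reach the cell surface. Trem2, a lipid-sensing receptor that signals through DAP12, had 29.2 at day 5 and 171.8 at day 12 in probe set 1421792_s_at, at least 3.68-fold higher. Its second probe set, 1421226_at, had 6.45 and 18.2, below the floor at both days, so the call for Trem2 rests on 1 probe set of shared sequence.

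Syk and Fcgrt did not follow the adaptors. All 4 probe sets of Syk lay below the floor at both days. The brightest had 33.7 at day 5 and 30.1 at day 12, the next had 23.5 and 13.3, and the others had 12.9 and 14.2, and 1.39 and 1.05. A signal below the floor is not a proof of absence, since a probe set can be weak for its transcript. With the floor at the 50th percentile Syk was measured, with a log2 ratio of -0.16. Fcgrt encodes the neonatal Fc receptor FcRn, a protein of the MHC class I fold that pairs with β2-microglobulin and returns IgG and albumin from endosomes to the cell surface. It signals through neither adaptor and is made by many cell types besides blood cells. Its signal was 927.7 at day 5 and 824.1 at day 12, a log2 ratio of -0.17, against a median of -0.05 for all measured genes. B2m, its partner, had 6656 and 8116 (1.22-fold). Of 15 measured genes of the MHC class I fold and its assembly none differed by 2-fold, with a median log2 ratio of -0.02. Over all measured genes 3.56% were at least 2-fold higher and 1.73% lower, so none of 15 is near those shares. Pdia3 and Canx, chaperones of class I assembly, had log2 ratios of -0.08 and -0.02, so Fcgrt stood within the range of its list.

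**Figure D2:**
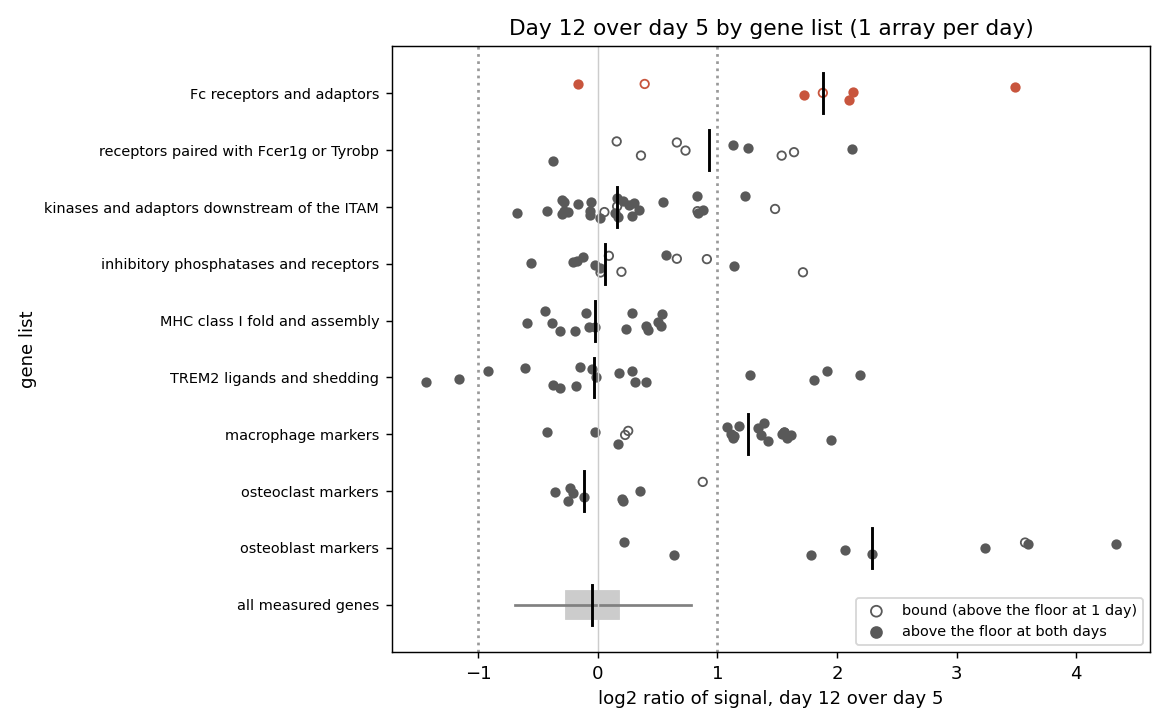
Log2 ratio of day 12 over day 5 for the measured genes of each list, 1 array per day, with bounds as open circles, the list median as a black bar and dotted lines at 2-fold. The last line gives the median, quartiles and 5th to 95th percentile of all measured genes. The Fc receptor and adaptor genes split into 5 to the right of the 2-fold line and 2 near 0, and genes of ITAM kinases lie mostly between the dotted lines.

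Receptors that use the same adaptors were in part higher as well. Of 39 genes listed for receptors paired with FcRγ or DAP12 and their partners, 31 had a probe set and 10 were measured. Of these 10, 5 were at least 2-fold higher and none lower (median log2 ratio 0.93), against 3.56% and 1.73% of all measured genes. Cd300a, Cd300lb, Cd300ld, Clec7a, Clec4n and Itgb2 reached the floor at day 12 alone. They could enter only by being higher at day 12, so the counts and the median describe the list and are not support for it. Clec4d, an FcRγ-coupled lectin receptor, went from 57.0 to 248.8 (4.37-fold). Its log2 ratio was 0.45 with a floor at the 75th percentile. Clec4n, which encodes the fungal lectin receptor dectin-2, went from 13.0 to 145.3, at least 3.12-fold higher, and its other measured probe set gave 0.84 on the log2 scale. Itgb2, the shared β2 integrin chain, was at least 2.90-fold higher, Cd300c2 was 2.39-fold higher, and Csf1r, the receptor for macrophage colony-stimulating factor, was 2.19-fold higher. With a pseudocount the log2 ratio of Cd300c2 was 0.78, and the lowest Csf1r probe set gave 0.69. For Cd300a and Cd300lb, of the same family as Cd300c2, the bounds were 1.58-fold and 1.28-fold. Plxna1, a plexin that associates with Trem2, had a log2 ratio of -0.38. With the floor at the 75th percentile 3 of these genes were measured and 1 was at least 2-fold higher, and without probe sets of shared sequence 2 of 7 were. Of the other Fc receptor genes, Fcrls, a macrophage gene of the Fc receptor-like family, went from 175.9 to 655.0 (3.72-fold). Trim21, a cytosolic antibody receptor, had 130.1 and 103.8. The remaining 8 with a probe set lay below the floor at both days, among them Fcer1a, the IgE-binding chain, with 0.25 and 0.40.

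Most genes that act after the ITAM differed little. Of 51 kinases, adaptors and effectors listed, 46 had a probe set and 29 were measured. Of these 29, 2 were at least 2-fold higher and none lower. Over all measured genes the shares were 3.56% and 1.73%, so these counts are near them. Blnk, Lat2, Prkcb and Rac2 reached the floor at day 12 alone and could enter only by being higher then. The median log2 ratio of the list was 0.16. The median was -0.03 with the floor at the 75th percentile, where none of 18 measured genes passed 2-fold. Blnk, an adaptor that links Syk to phospholipase C, went from 31.7 to 130.2, at least 2.79-fold higher. Tec, a kinase of the same pathway, went from 76.7 to 179.8 (2.34-fold), but on the log2 scale this was 0.88 if a pseudocount replaced the floor, and 0 for the floor at the 75th percentile. Rac1, Pik3cd and Pik3r1, which are used by many receptors, had log2 ratios of -0.06, 0.16 and -0.43. Fyn, a Src-family kinase, went from 231.8 to 425.9 (1.84-fold), and Plcg2, the phospholipase downstream of Syk, from 165.9 to 241.4 (1.46-fold). Btk with 31.3 and 41.1, Zap70, the Syk relative of T cells, with 43.1 and 43.9, and Vav1 with 12.3 and 19.5 lay below the floor.

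Phosphatases and inhibitory receptors split in the same way. Of 28 listed, 27 had a probe set and 14 were measured. Of these 14, 2 were at least 2-fold higher and none lower, against 3.56% and 1.73% of all measured genes. The median was 0.06, and -0.10 with the floor at the 75th percentile. Inpp5d, Ptpn6, Dok3, Cd72, Cd84 and Cd300a reached the floor at day 12 alone. They could enter only by being higher then, so the counts and the median describe the list and are not support for it. Inpp5d, which encodes SHIP1, the phosphatase recruited by Fcgr2b, had 29.5 at day 5 and 47.3 at day 12, at most a little above the floor, and Ptpn6, the phosphatase SHP-1, had 42.2 and 53.4. Fcgr2b was thus 11.2-fold higher by its brightest probe set while the signal of its main effector gene stayed near the floor. Cd84, a receptor of the SLAM family, was at least 3.28-fold higher, and Ptprc, which encodes the leukocyte phosphatase CD45, was 2.20-fold higher, or 0.75 on the log2 scale if a pseudocount replaced the floor. Ptpn11, Inppl1 and Dok1, which are made in most cells, had log2 ratios of -0.17, 0.57 and -0.56.

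The list for Trem2 ligands and shedding, which also holds Axl, Mertk, Gas6 and genes of the Ms4a family, went both ways. Of 18 measured genes, 4 were at least 2-fold higher, against 3.56% of all measured genes. At least 2-fold lower were 2, Ms4a4d and Axl, against 1.73%. Both lower genes were among these additions, as were Ms4a7 and Ms4a6d of the 4 higher genes. The median was -0.04 and turned positive with centring on the median (0.01), with loess (0.02) and without probe sets of shared sequence (0.08). Apoe, a lipoprotein that binds Trem2, went from 375.0 to 1717 (4.58-fold), and Lgals3, the galectin-3 gene, from 976.0 to 3686 (3.78-fold). Ms4a7 and Ms4a6d, of a family of macrophage membrane proteins, were 3.50-fold and 2.41-fold higher, and a pseudocount brought the second to 0.84 on the log2 scale. Ms4a4d was lower, with 174.9 and 64.7 (a log2 ratio of -1.44, just short of 2-fold lower with a pseudocount), and Axl, a receptor tyrosine kinase for apoptotic cells, had 784.0 and 349.8 (-1.16). Anxa1, App and Gas6 had log2 ratios of -0.32, -0.19 and 0.31.

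Markers of macrophages moved with the Fc receptor genes. Of 28 listed, 20 were measured. At least 2-fold higher were 15 and none was lower, against 3.56% and 1.73% of all measured genes. The median log2 ratio was 1.26 and ranged from 1.14 to 1.41 over the alternatives. Aif1 and Ccl4 reached the floor at day 12 alone and could enter only by being higher then. Their summed signal was 10443 at day 5 and 24276 at day 12 (2.32-fold), and no marker was listed at 0. Mpeg1, a pore-forming protein of macrophages, had the highest ratio of the list (3.86-fold), and C1qb, Cd68, Ctss, Cd53 and C1qa were between 2.91-fold and 3.06-fold higher. The lowest C1qb probe set gave 0.93 on the log2 scale, and Cd53 was at 0.83 with the floor at the 75th percentile. Coro1a, Cx3cr1 and Msr1 had log2 ratios of 0.17, -0.02 and -0.43. Itgam, which encodes the CD11b used for the depletion, had 14.6 and 35.4, below the floor at both days. The log2 ratios of Fcgr2b, Tyrobp and Fcgr3 were above those of all 20 measured markers, and those of Trem2 and Fcer1g above 19 of them. Tyrobp kept this place under all 8 alternatives. With the floor at the 75th percentile, where low day 5 values became bounds, Fcgr2b was above 11 of 13 and Fcgr3 above 9 of 13. At a limit of 3-fold, the 5 Fc receptor and adaptor genes still passed, as did 2 of the 20 markers and 1.67% of all measured genes. The order compares single ratios on 1 pair of arrays and has no test. The part of macrophage number in the differences of Fc receptor genes was not tested.

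Markers of other blood cells were mostly below the floor, and most measured osteoclast markers differed little. Of 16 listed osteoclast markers 9 were measured and none passed 2-fold. Over all measured genes 3.56% were at least 2-fold higher and 1.73% lower, so none of 9 is near those shares. The median of the 9 was -0.12 and became 0.02 when a gene's probe sets were summarised by their median. Atp6v0d2, a proton pump subunit needed for osteoclast fusion, had the highest ratio of the list, with 15.7 at day 5, below the floor, and 85.6 at day 12 (at least 1.84-fold). Either the floor at the 50th percentile or a pseudocount brought 1 osteoclast marker past 2-fold. Acp5, the tartrate-resistant phosphatase, had 279.3 and 237.3, Ostm1 485.2 and 407.5, and Ctsk, a collagen-degrading protease, 3191 and 4084 (1.28-fold). Nfatc1, the osteoclast factor induced through ITAM signals, had 214.9 and 248.3, and Oscar, an FcRγ-coupled osteoclast receptor, had 4.37 and 3.46. All markers with a probe set for neutrophils (10), lymphocytes (11) and natural killer cells (7) lay below the floor. Of 10 mast cell markers Gata2 alone was measured, with 107.8 and 85.7, and of 10 dendritic cell markers H2-Ab1 alone, at least 5.18-fold higher. The lowest H2-Ab1 probe set gave 0.75 on the log2 scale, and the floor at the 75th percentile 0.41. The 2 endothelial markers measured of 12, Erg and Egfl7, had log2 ratios of -0.15 and 0.42. For the labelled cell type, all 9 osteoblast markers with a probe set were measured. Against 3.56% of all measured genes, 7 of these markers were at least 2-fold higher. They included Dmp1 (20.2-fold), Ifitm5 (12.1-fold), Phex (at least 11.9-fold), Ibsp (9.41-fold), Alpl (4.90-fold) and Pth1r (4.18-fold), while Col1a1 and Col1a2 had log2 ratios of 0.63 and 0.21. Marker genes of the mineralising osteoblast and of the macrophage were thus both higher on the day 12 array.

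Around the chromosome 1 Fc receptor genes, Tyrobp and Trem2, no measured neighbour outside the set was at least 2-fold higher. Among all measured genes 3.56% were, so none among so few neighbours is near that share. Several neighbours lay below the floor, where no ratio was taken. The neighbours of Fcgr1, Fcgrt and Syk were not examined. By the order of protein-coding genes in RefSeq's GRCm38.p6 table, Fcrla, Fcgr2b, Fcgr4 and Fcgr3 lie in a row on chromosome 1 and Fcer1g follows after 7 other genes. Within this row Fcrla, an Fc receptor-like gene of B cells, had 3.69 and 9.06 and Fcgr4 was below the floor, between 2 neighbours that were 11.2-fold and 4.28-fold higher. Of the 7 genes between Fcgr3 and Fcer1g, 4 were measured, none was at least 2-fold higher and 1 was lower, which was Pcp4l1 with 566.3 at day 5 and 135.4 at day 12. Sdhc, a subunit of succinate dehydrogenase, had 1092 and 1081, and Adamts4, on the far side of Fcer1g, had 266.8 and 357.0. Hcst, which encodes the related adaptor DAP10 and lies next to Tyrobp, had 3.74 and 11.9, and on its other side Lrfn3 had 114.8 and 117.2. In the Trem cluster on chromosome 17, Trem1 had 17.2 and 29.1, Trem3 13.9 and 10.2 and Treml2 6.47 and 1.97, and Treml4 and Treml1 were also below the floor. Trem2 was therefore the 1 measured gene among the Trem family genes of that cluster.

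**Figure D3:**
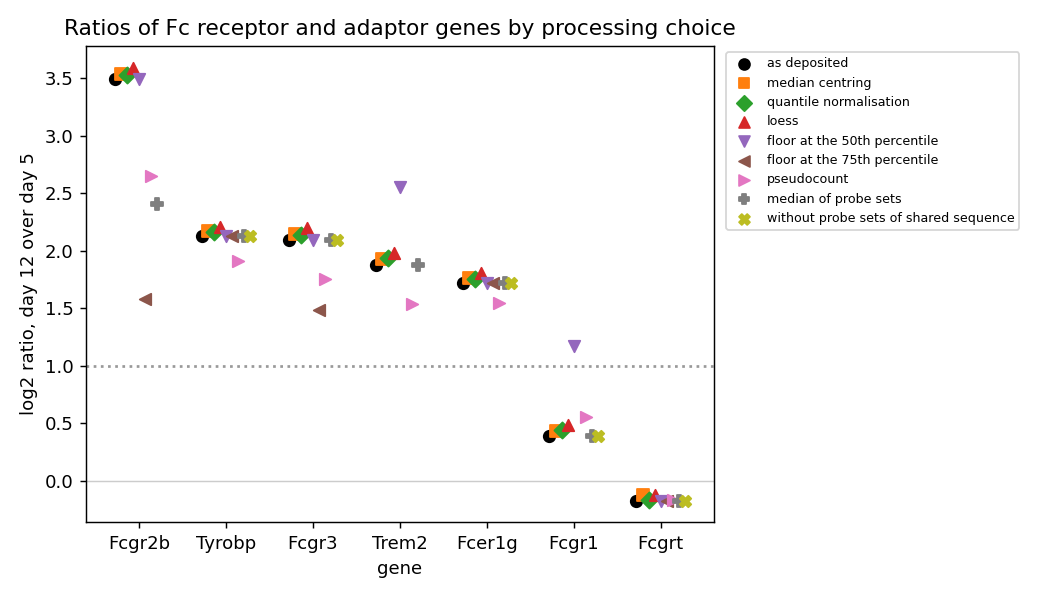
Log2 ratio of day 12 over day 5 for the 7 measured Fc receptor and adaptor genes as deposited (black) and under each alternative, with a dotted line at 2-fold. Fcgr2b spreads from 1.58 to 3.59, Tyrobp from 1.92 to 2.21, Fcgr1 passes the dotted line with the lower floor, and Fcgrt stays near 0. A missing symbol means the gene was not measured under that alternative.

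Across scalings, floors and summaries the size of the differences varied most for Fcgr2b. Its fold ranged from 2.99 to 12.1 over the 7 alternatives in which it was measured, the lowest with the floor at the 75th percentile, where the day 5 value became a bound. Fcgr3 ranged from 2.80-fold to 4.59-fold, Tyrobp from 3.77-fold to 4.63-fold and Fcer1g from 2.92-fold to 3.49-fold. Trem2 ranged from 2.90-fold to 5.88-fold over 6 alternatives and was not measured with the floor at the 75th percentile. Without probe sets of shared sequence neither Fcgr2b nor Trem2 was measured, and the genes at least 2-fold higher were then the 3 genes Fcgr3, Fcer1g and Tyrobp. The 2 adaptor genes and Fcgr3 thus carry the difference that needs no shared probe set.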

How the data were processed

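Biotin-labelled cRNA from 2 cultures, 1 per day, was hybridised to 1 array each, per the labels' protocols. The authors deposited 1 table of signal intensity on a linear scale for 45101 probe sets, made with GCOS 1.4 and MAS5 per the submitters' processing notes. Both arrays had a trimmed mean of 200.0 (2% left out at either end), and such scaling hides a change in total RNA. No detection call was used. The signal median was 19.7 at day 5 and 19.6 at day 12. The 3' over 5' ratio at day 5 and day 12 was 1.25 and 1.22 for Actb and 0.74 and 0.80 for Gapdh. The genome build of the array annotation is not given in the sources used here.

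Of 34945 probe sets with 1 symbol, names were updated through the Entrez number with RefSeq's GRCm38.p6 table. Each gene was represented by its brightest probe set (mean log2 signal). Values below the 60th percentile floor were raised to it, and a bound of opposite sign was set to 0. Signals near the floor are least precise, and the number of arrays limits every value. With 1 array per day the rule was a ratio of at least 2-fold, with no test. Alternatives were median centring, quantile normalisation, loess, a pseudocount equal to the mean floor, floors at the 50th and at the 75th percentile, the median over probe sets, leaving out IDs ending in _s_at, _x_at or _a_at, and 1.5-fold and 3-fold thresholds. The code was tested on simulated data.

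The set of 9 genes and the other 15 gene lists were chosen with earlier results of these data known. Beside the 9 genes, the naming rule took up to 6 genes past 2-fold per list, 3 others of high signal and the 4 genes of nearest ratio. Genes of the set were left out of the other lists, and a gene may stand in more than 1 list. Spi1, Itgam, Inpp5d, Ptpn6, Fyn, Plcg2, Btk, Zap70, Vav1, Nfatc1, Oscar, Atp6v0d2, Fcer1a and the chromosome neighbours were chosen after their values were seen. Python 3.11.15, numpy 2.4.6, pandas 2.3.3, statsmodels 0.14.6 and matplotlib 3.10.9 were used.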

Additional observations from a re-analysis of the deposited data

How the results depend on the processing

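No paired analysis was possible because there was 1 array per day, and for the same reason no replicate could be left out. The count of Fc receptor and adaptor genes at least 2-fold higher was 5 as deposited, stayed between 4 and 6 under the other alternatives and was 3 without probe sets of shared sequence. The count of their probe sets was 8, and 4 with the floor at the 75th percentile and 3 without probe sets of shared sequence. None of these genes was at least 2-fold lower under any of the 10 alternatives. Over all measured genes, the count of higher ones (373) was 223 with the floor at the 75th percentile, 760 at 1.5-fold and 175 at 3-fold. The count of lower ones (181) was 297 and 74 with the floors at the 50th and 75th percentile, 94 with a pseudocount, 807 at 1.5-fold and 36 at 3-fold. Floors and thresholds change these counts by their construction. Of 418 values of the 56 other named genes under alternatives, 20 moved by more than 0.54 on the log2 scale or across 2-fold, and none past 2-fold changed sign. The alternatives cover processing and not differences between cultures, and low signals limit Fcgr1, Fcgr4, Syk and the day 5 values of Fcgr2b and Trem2.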
